A study of Arabidopsis thaliana with 14 samples.

Results

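Wild-type (Col) Arabidopsis thaliana seedlings 7 days old, grown in darkness with a brassinosteroid and then moved to light for 2 h, were compared with seedlings of the same age that had stayed in darkness without the hormone. The comparison rests on 4 of 14 expression arrays, the 2 titled Col_BR_DL and the 2 titled Col, and the arrays were paired by replicate number. All genes on the array were followed, as 17787 probe sets that passed a filter on low signal out of 22810. Another 4 arrays held each treatment by itself. These were 2 arrays of Col_DL seedlings, which were moved to light for 2 h without hormone, and 2 arrays of Col_BL seedlings, which had the hormone and stayed dark. All 8 wild-type arrays came from seedlings 7 days old, and all of these seedlings were first grown in darkness. The titles name the hormone BL in the dark group and BR in the group moved to light, and both were read as the brassinolide (BL) treatment that the study's design text names. How much BL was used, for how long, and how bright the light was are not stated in the labels. No group was moved without being lit, so light and handling cannot be told apart. The remaining arrays were of det2, a mutant described as brassinosteroid deficient, and entered the analysis only through the estimate of the spread between arrays.

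Brassinosteroids are steroid hormones of plants that are sensed by receptor kinases at the cell surface and act through a small family of transcription factors. In darkness they sustain the rapid elongation of the hypocotyl and hold back greening. Light, sensed by phytochromes and cryptochromes, slows elongation and starts the building of chloroplasts and the making of protective flavonoid pigments. Wall-loosening proteins are long-known targets of brassinosteroids, and the genes of light harvesting and anthocyanin synthesis are long-known targets of light, so hormone and light meet in the same seedling at the point where growth in the dark gives way to greening.

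The deposited values were linear signals that had been scaled to a common level on each array, and they were tested as log2(signal + 16). The median signal per wild-type array lay between 188 and 216. The median standard deviation between the 2 replicates was 0.19 in Col_BR_DL, 0.20 in Col_DL, 0.16 in Col_BL and 0.20 in Col on the log2 scale, against 0.10 to 0.13 in the det2 groups. The ratio of 3′ to 5′ signal of the actin control, a measure of RNA integrity, was 4.77 and 5.13 in BL plus light, 2.28 and 3.74 in light alone, 7.51 and 4.92 in BL alone and 5.99 and 5.41 in darkness. The same ratio of the GAPDH control was 0.98 and 0.90 in BL plus light and 0.84 and 0.92 in light alone. It was 0.84 and 0.72 in BL alone and 0.93 and 0.94 in darkness. The actin ratio was lowest in light alone and the GAPDH ratio was not, and the part of either ratio in the results was not tested. The labels do not tell whether the 2 replicates of a group were grown apart, so the p-values reflect a spread that could be technical only. Adjusted p-values are those of limma with Benjamini-Hochberg adjustment over the 17787 probe sets, and a difference passed where this was under 0.05.

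Hormone and light together changed the signal of 5532 probe sets against darkness, which is 31.1% of those tested. Of these, 2666 rose (15.0%) and 2866 fell (16.1%). At least 2-fold changes that passed numbered 2299 (12.9%), of which 1290 were rises (7.25%) and 1009 falls (5.67%). The median change over all probe sets was -0.0025 on the log2 scale, and the 95% interval of a change reached a median of 0.43 to either side.

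The largest rises were mostly in genes that light alone raised as well. AT5G48570, which carries the synonyms ROF2 and FKBP65 and belongs to the FK506-binding protein family of peptidyl-prolyl isomerases, had signals of 8067 and 3963 in BL plus light, 5234 and 2725 in light alone, 107 and 79.6 in BL alone and 59.8 and 36.3 in darkness. Both groups moved to light stood far above both dark groups, and the rise against darkness was 90.1-fold (log2 change 6.49 ± 0.19, SE; adjusted p = 2.44e-10). Hop3, a co-chaperone that links the HSP70 and HSP90 chaperone systems and is known to be induced by heat, had 3514 and 1554 in BL plus light, 2366 and 1545 in light alone, 43.6 and 20.2 in BL alone and 34.3 and 24.9 in darkness. It rose 51.9-fold (adjusted p = 4.08e-08) and its signal with light overlapped between seedlings with and without BL. AT5G51440 rose 49.6-fold and AT5G12110 rose 34.0-fold in the same pattern. Dark signals this low make the size depend on the constant, and with 64 in place of 16 the log2 changes of AT5G48570, Hop3 and AT5G51440 were 5.68, 4.69 and 4.90.

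THI2.2, a thionin of the plant defence peptides, had 569.7 and 1069.6 in BL plus light, 273 and 514 in light alone, 13.6 and 14.1 in BL alone and 16.1 and 23.5 in darkness. The BL plus light arrays were the highest. Their lack of overlap with darkness was a condition for listing the largest rises and falls. The rise was 22.4-fold on the log2(signal + 16) scale (adjusted p = 3.31e-05), where the constant of 16 is close to the dark signals and lowers the fold. AT1G53540 had 2228 and 350.5 in BL plus light and 38.9 and 16.2 in darkness, and AT1G54050 had 3563 and 1018 in BL plus light and 61.9 and 116 in darkness. These 2 genes rose 21.6-fold and 19.0-fold, with replicate 1 of Col_BR_DL well above replicate 2. Without that replicate their log2 changes were 3.39 and 3.10, and without replicate 2 they were 5.47 and 5.39, so the size of both rises rests on which array is read. With a constant of 1 or 64 the change of THI2.2 was 5.26 or 3.34 and that of AT1G53540 was 5.08 or 3.42.

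AT4G14090 was the one gene among the 8 largest rises in which the average changes with BL (2.12) and with light (2.30) were of like size. It had 1139 and 1619 in BL plus light, 229.9 and 611 in light alone, 405 and 269.8 in BL alone and 27.0 and 78.8 in darkness. All 4 arrays with a single treatment lay between the arrays with both treatments and the arrays with none, and the combined rise was 21.5-fold (log2 change 4.43 ± 0.35, SE; adjusted p = 5.59e-07), or 3.64 on the log2 scale with a constant of 64.

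Of the 8 largest falls, 5 lay mainly between seedlings with and without BL, and 3 took a comparable part from light. AT2G16005 had 118 and 91.5 in BL plus light, 2267 and 1553 in light alone, 109 and 89.9 in BL alone and 3710.2 and 3061 in darkness. Both groups with BL were low and both groups without it were high, and the combined fall was 28.2-fold (log2 change -4.82 ± 0.15, SE; adjusted p = 2.44e-10). AT4G37220 showed the same order, with 202 and 147 in BL plus light, 7333 and 2439 in light alone, 377 and 224 in BL alone and 6578 and 4064 in darkness, and it fell 27.5-fold (adjusted p = 7.95e-09). Falls of 10.0-fold in AT1G52070, 8.73-fold in AT1G34510 and 8.69-fold in AT5G10130 also lay mainly between seedlings with and without BL. In these 3 genes the signals of BL plus light were 9.90 and 57.0, 2.70 and 34.0 and 5.50 and 46.9, with 1 array of each pair at or under 9.90, below the constant of 16. Their log2 changes therefore depend on that constant, at -4.07, -4.47 and -4.11 with a constant of 1 and -2.37, -1.97 and -2.07 with a constant of 64. AT2G19970, AT3G45710 and AT5G62340 fell 19.9-fold, 14.3-fold and 10.5-fold and are described with the genes in which both treatments lowered the signal. With a constant of 64 the changes of AT2G19970 and AT3G45710 were -3.42 and -3.23. Leaving out replicate 1 or replicate 2 of Col_BR_DL moved the log2 change of AT2G19970 to -4.97 or -3.66 and that of AT5G10130 to -2.50 or -3.74, and it made the fall of AT1G52070 5.48-fold or 18.4-fold. Leaving out replicate 1 or replicate 2 of Col also moved AT1G52070, to log2 changes of -2.56 or -4.10.

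**Figure D1:**
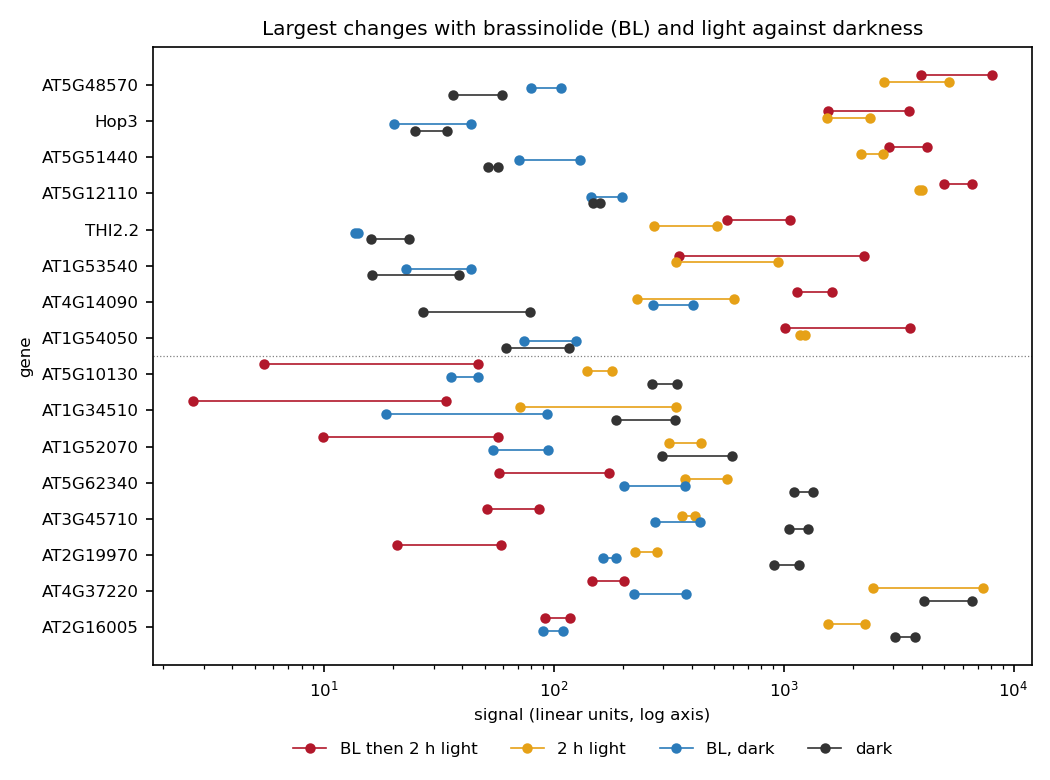
Signal (log axis) of the 8 genes with the largest rises and the 8 with the largest falls in BL plus light against darkness, with 1 point per wild-type array and colour for the group. The rises lie apart between seedlings moved to light and dark seedlings, with AT4G14090 graded over the 4 groups, and 5 of the 8 falls lie mainly between seedlings with and without BL, as in AT2G16005 with 118 and 91.5 in BL plus light and 3710 and 3061 in darkness.

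To see how each treatment contributed, the combined change was split on the log2 scale into an average effect of light and an average effect of BL. The average effect of light is the mean of 2 differences, BL plus light minus BL alone and light alone minus darkness. The average effect of BL is the mean of BL plus light minus light alone and BL alone minus darkness. The 2 averages add exactly to the combined change, and each uses all 8 wild-type arrays. Light passed the test in 7268 probe sets (40.9%), with 2914 higher (16.4%) and 4354 lower (24.5%) in light, and BL passed in 2922 (16.4%), with 1479 higher (8.32%) and 1443 lower (8.11%) with BL. Without the replicate block, BL passed in 1790. Light passed and BL did not in 5519 probe sets (31.0%), and BL passed and light did not in 1173 (6.59%). Median effects over all probe sets were -0.088 for light and 0.07 for BL on the log2 scale. A probe set was said to add up where both averages passed with the same sign, and to cancel where both passed with opposite signs. It was said to hold where light passed and the 95% interval of the interaction, the light change with BL minus the light change without it, lay within 1 log2 unit of 0, so that BL altered the light change by less than 2-fold.

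**Figure D2:**
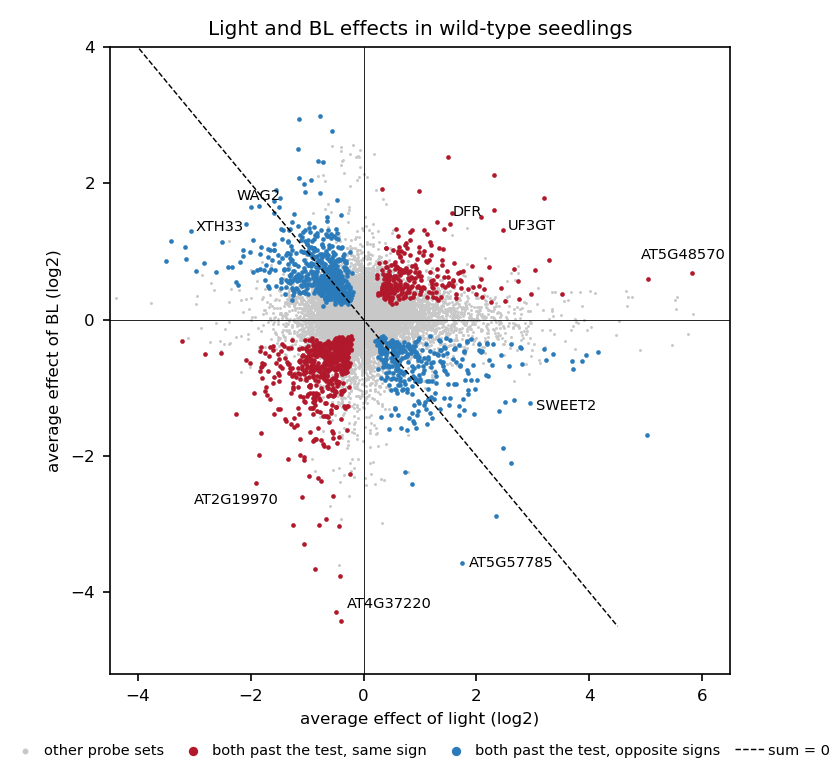
Average effect of light (horizontal axis, log2) against average effect of BL (vertical axis, log2), with 1 point per probe set over 17787 probe sets. Red points passed the test for both with the same sign (818) and blue points with opposite signs (931), and the dashed line marks where the effects sum to 0, along which WAG2 lies close and from which UF3GT and AT2G19970 lie far.

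The change brought by light held in 5282 probe sets (29.7% of those tested, and 72.7% of the light calls), with 1992 higher (11.2%) and 3290 lower (18.5%). Light calls of at least 2-fold numbered 1703 (9.57% of those tested), and among these it held in 878 (4.94% of those tested), or 51.6%. Failing this criterion does not show that BL altered the light response, because an interval that reaches beyond 1 log2 unit is counted as not held.

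The genes of the photosynthetic apparatus rose with light and showed little difference between seedlings with and without BL. All 6 members of the photosystem and electron transport list with a tested probe set rose in the combined comparison, by 0.90 to 1.75 on the log2 scale, and all 6 held, with interaction intervals inside -0.58 to 0.62. Among all probe sets 15.0% rose and 11.2% held a light rise. Of all light calls 72.7% held, so holding is not particular to this list. PSAN, a lumenal subunit of photosystem I, had 3822 and 4265 in BL plus light, 3778 and 4843 in light alone, 929 and 1023 in BL alone and 1253 and 1124 in darkness. Its signals with light overlapped between seedlings with and without BL and lay far above both dark groups, a combined rise of 3.37-fold (adjusted p = 2.15e-07). PSBY of photosystem II rose 2.96-fold, NdhN of the chloroplast NADH dehydrogenase-like complex 2.42-fold and PSAE-1 of photosystem I 2.40-fold. The list's median was 1.27 for the combined change, 1.30 for light and -0.023 for BL.

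In the minor antenna and in carbon fixation the tested genes also rose with light. All 3 tested genes of the antenna rose, and 2 of them, LHCB4.2 and LHCB4.1, held, beside 15.0% and 11.2% of all probe sets. Of all light calls 72.7% held. LHCB4.2, which encodes the CP29 antenna protein of photosystem II, had 9656 and 10709 in BL plus light, 9331 and 9141 in light alone, 3467 and 3506 in BL alone and 4015 and 3187 in darkness. It rose 2.83-fold (adjusted p = 2.79e-07), with an average BL effect of 0.05 (95% interval -0.12 to 0.22). Its relatives LHCB4.3 and LHCB4.1 rose 4.39-fold and 1.69-fold. The interaction interval of LHCB4.3 was 0.14 to 1.16, which reaches beyond 1 log2 unit (adjusted p of the interaction = 0.563). The 3 tested Calvin cycle genes rose and held, beside the same shares of all probe sets and of light calls. RCA, the activase of Rubisco, rose 2.47-fold, SBPASE, a bisphosphatase that regenerates the carbon dioxide acceptor, 2.41-fold, and PRK, the kinase that completes that regeneration, 1.81-fold. In wild-type arrays alone without the replicate block PRK had an adjusted p of 0.0542.

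Tetrapyrrole synthesis, the route to chlorophyll, was mixed. Of 8 tested members 4 rose and 1 fell in the combined comparison, beside 15.0% and 16.1% of all probe sets. CHLM, the Mg-protoporphyrin methyltransferase, had 3808 and 3708 in BL plus light, 4187 and 3871 in light alone, 1515 and 1795 in BL alone and 2486 and 1885 in darkness, a rise of 1.73-fold (adjusted p = 0.000451). PORB, a light-dependent protochlorophyllide reductase that is abundant in dark-grown seedlings, fell. It had 6189.8 and 5031 in BL plus light, 3147 and 3740.0 in light alone, 8302 and 9543 in BL alone and 8913 and 8101 in darkness, so the arrays with both treatments lay between light alone and the dark groups. Its average light effect was -0.99 (adjusted p = 1.36e-06) and its average BL effect 0.38 (adjusted p = 0.0105), and the combined fall of 1.52-fold passed (adjusted p = 0.00259). HEME1, a uroporphyrinogen decarboxylase, had the opposite pattern, 0.91 with light and -0.39 with BL. In wild-type arrays alone with the replicate block the BL effects of PORB and HEME1 had adjusted p-values of 0.0551 and 0.062. The BL effect of HEME1 also did not pass without the block (adjusted p = 0.0758), nor did its combined rise (adjusted p = 0.0567), and the BL effect of PORB did not pass without replicate 2 of Col, replicate 2 of Col_BL, replicate 1 of Col_BR_DL or replicate 1 of Col_DL. The combined calls of PORB, HEME1 and CHLI2 ended without replicate 2 of Col_BR_DL (log2 changes -0.40, 0.41 and 0.96), those of HEME1 and CHLI2 without replicate 2 of Col (0.36 and 0.62), and that of CHLI2 also without replicate 1 of Col_BR_DL (0.84).

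Of 3 regulators of the light response, FHL and GI held and HYH did not meet that criterion. HYH, a bZIP transcription factor and close relative of HY5, had 537 and 491 in BL plus light, 406 and 548 in light alone, 28.9 and 44.0 in BL alone and 56.4 and 78.2 in darkness. The combined rise was 6.41-fold (adjusted p = 2.33e-06), and the interaction of 0.79 (95% interval 0.04 to 1.54) did not pass (adjusted p = 0.666). FHL, which carries phytochrome A into the nucleus, fell 3.80-fold, with 63.2 and 92.4 in BL plus light, 59.2 and 91.8 in light alone, 321 and 377 in BL alone and 275 and 410.0 in darkness. Its average BL effect was 0.05 (95% interval -0.28 to 0.37). GI, a clock-associated protein, rose 5.75-fold, with 2765 and 2070.4 in BL plus light, 3761 and 1528 in light alone, 737 and 295 in BL alone and 747 and 214 in darkness. In each group the first GI array was above the second, so the change is clearest within replicate numbers.

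The light changes of at least 4-fold with the narrowest interaction intervals were in genes known here by locus. AT1G44000 had 2001 and 2601 in BL plus light, 2045 and 2721 in light alone, 382 and 438 in BL alone and 378 and 473 in darkness. Its average light effect was 5.40-fold, and its interaction interval was -0.37 to 0.37. AT3G07090, AT5G08050 and AT1G61890 rose with light by 4.78-fold, 4.92-fold and 4.61-fold. AT2G34020 had 197 and 201 in BL plus light, 154 and 195 in light alone, 1972 and 1710.2 in BL alone and 1397 and 1185 in darkness, an average light fall of 7.70-fold. AT1G76240 and AT5G02540 fell with light by 5.17-fold and 4.69-fold. AT1G60060 held its light fall of 4.39-fold while BL raised it 2.02-fold in light and dark, with 133 and 102 in BL plus light, 53.8 and 44.3 in light alone, 551 and 567 in BL alone and 305 and 242 in darkness, so holding and cancelling are not exclusive.

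Light and BL added up in 818 probe sets (4.6% of those tested), 271 higher (1.52%) and 547 lower (3.08%), and in 434 without the replicate block. Without replicate 1 of Col_BL the number was 532.

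The flavonoid and anthocyanin genes rose furthest of the lists described. All 6 tested members rose in the combined comparison, beside 15.0% of all probe sets. Their median log2 change was 3.21 against -0.0025 over all probe sets, with medians of 2.57 for light and 0.65 for BL. In 3 of the 6 BL passed as well and added to the rise, as in 1.52% of all probe sets. Only 1 of the 6 met the criterion for holding, beside 72.7% of all light calls, which does not show that BL altered the light change. DFR, dihydroflavonol reductase, the step that commits flavonoids to anthocyanin, had 1228 and 1360.2 in BL plus light, 328 and 817 in light alone, 527 and 427 in BL alone and 132 and 185 in darkness. The arrays with both treatments were the highest and the dark arrays the lowest, with the single treatments between them. Its average light effect was 1.52 and its average BL effect 1.40 (adjusted p = 6.4e-05 and 0.000489), and the combined rise was 7.57-fold.

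UF3GT (UGT79B1), a glycosyltransferase that decorates anthocyanins, had 1832 and 2173 in BL plus light, 549.9 and 1314 in light alone, 502 and 279 in BL alone and 118 and 145 in darkness. It rose 13.7-fold, in the same graded order as DFR, with 2.46 from light and 1.31 from BL. UGT78D2, a flavonoid 3-O-glucosyltransferase, had 2509.5 and 2662 in BL plus light, 1893 and 2265 in light alone, 498 and 335 in BL alone and 172 and 179 in darkness. UGT78D2 rose 13.6-fold, with averages of 3.03 from light and 0.73 from BL. The arrays with BL stood above those without it by a larger fold in darkness than in light, and the interaction did not pass. CHIL, a chalcone isomerase-like protein that raises flux into flavonoids, rose 9.52-fold with a BL effect of 0.58 that did not pass (adjusted p = 0.0656). UGT84A1, a glucosyltransferase of hydroxycinnamic acids, had 202 and 141 in BL plus light, 187 and 237 in light alone and 5.10 or less in darkness, a rise of 8.95-fold. Its log2 change was 4.91 with a constant of 1 and 1.77 with 64. UGT78D1, a flavonol rhamnosyltransferase, rose 3.71-fold with light leading (1.65 of 1.89).

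Genes not on this list that added up included AT4G14090, described above and known here by its locus only, and AT1G59740 (NPF4.3, of the NRT1/PTR family of transporters). AT1G59740 had 2761 and 2468 in BL plus light, 1224 and 731 in light alone, 741 and 446 in BL alone and 187 and 129.7 in darkness. No 2 of the 4 groups overlapped except light alone and BL alone, which met at 731 and 741. It rose 15.3-fold, with 2.32 from light and 1.62 from BL (adjusted p = 7.99e-09 and 2.25e-06). AT5G47330 also passed for both, but its arrays do not read as a sum. It had 1421 and 1195 in BL plus light, 643 and 1422 in light alone, 989.8 and 812 in BL alone and 162 and 201 in darkness, so the signal with both treatments overlapped that with light alone, and the interaction was -1.78 ± 0.49 (SE; adjusted p = 0.359).

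Genes of carbon starvation and leucine breakdown fell with both treatments. All 4 tested members fell in the combined comparison, with a median log2 change of -1.80, and all 4 added up, with medians of -0.98 for light and -0.61 for BL. Among all probe sets 16.1% fell and 3.08% added up to a fall. MCCA, a subunit of methylcrotonyl-CoA carboxylase in leucine breakdown, had 397 and 266 in BL plus light, 904 and 428 in light alone, 2684 and 1174 in BL alone and 3426 and 1336 in darkness. Replicate 1 was above replicate 2 in each group, and within each replicate number the order was BL plus light, light alone, BL alone, darkness, lowest first. The combined fall was 6.32-fold (log2 change -2.66 ± 0.16, SE; adjusted p = 4.03e-08). AKINBETA1, a regulatory subunit of the SnRK1 energy-sensing kinase, had 683 and 585 in BL plus light, 2312 and 1041 in light alone, 1678 and 1329.9 in BL alone and 3351 and 1813 in darkness, and light and BL lowered it by nearly equal amounts (1.92-fold and 1.99-fold). IVD, isovaleryl-CoA dehydrogenase, and MCCB, the other subunit of the carboxylase, fell 3.15-fold and 2.41-fold. The BL effects of MCCA and MCCB did not pass without the replicate block (adjusted p = 0.288 and 0.243), and that of MCCB did not pass either in wild-type arrays alone with the block (adjusted p = 0.0593) or without replicate 1 of Col, replicate 2 of Col_BL, replicate 1 of Col_BR_DL or replicate 2 of Col_DL.

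Among genes known by locus, AT2G19970 had 59.1 and 20.8 in BL plus light, 226 and 281 in light alone, 164 and 187 in BL alone and 909.7 and 1165 in darkness, with -1.91 from light and -2.40 from BL. AT3G45710 had 51.0 and 86.4 in BL plus light, 360.0 and 410.5 in light alone, 276 and 433 in BL alone and 1059 and 1283 in darkness, with -1.84 and -1.99. In both genes the groups with 1 treatment lay between the group with both and darkness. AT5G62340 had 57.7 and 174 in BL plus light, 371 and 565 in light alone, 203 and 374 in BL alone and 1112 and 1348 in darkness, with -1.35 from light and -2.05 from BL. AT3G01190 and AT5G47950 fell 7.33-fold and 6.41-fold. SWEET16, a vacuolar sugar transporter, had 180.5 and 217 in BL plus light, 462 and 461 in light alone, 359.8 and 353 in BL alone and 899 and 1108 in darkness, a combined fall of 4.74-fold. SWEET13, a sucrose exporter, was its counterpart upward, with 441 and 293 in BL plus light, 121 and 146 in light alone, 178 and 114 in BL alone and 77.8 and 71.4 in darkness, a rise of 4.15-fold to which light and BL gave 0.98 and 1.07.

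Light and BL worked against each other in 931 probe sets (5.23%), 329 raised by light and lowered by BL (1.85%) and 602 lowered by light and raised by BL (3.38%). In 705 of the 931 (75.7%, or 3.96% of those tested) the 95% interval of the combined change lay within 2-fold of no change, and 242 (26.0%, or 1.36% of those tested) still passed in the combined comparison. Over all probe sets these shares were 61.3% and 31.1%. The combined change is the sum of the 2 averages, and the class was chosen for their opposite signs. A small sum is therefore partly built in, and the shares are not a test of cancelling. The number that cancelled was 517 without the replicate block and 620 in wild-type arrays alone with it, and it was 586 without replicate 2 of Col, 593 without replicate 1 of Col_BL and 582 without replicate 2 of Col_BR_DL.

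The xyloglucan endotransglucosylases (XTH), which cut and rejoin the xyloglucan tethers of the cell wall, held several of these genes. Of 7 tested members 4 cancelled, XTH18, XTH19, XTH20 and XTH33, beside 5.23% of all probe sets, and light lowered and BL raised each of them. XTH20 had 332 and 497 in BL plus light, 135 and 159 in light alone, 867 and 1119 in BL alone and 299 and 532 in darkness. Light alone was lowest and BL alone highest, without overlap, and the arrays with both treatments overlapped darkness. Light gave -1.30 and BL 1.32 (adjusted p = 0.00106 and 0.00274), which left a combined change of 0.02 (95% interval -0.75 to 0.80). XTH19 had 3081 and 4894 in BL plus light, 666 and 1213 in light alone, 5464 and 7116 in BL alone and 2783 and 3482 in darkness. Its effects were -1.23 and 1.54, and the combined change of 0.32 did not pass (adjusted p = 0.0969). XTH33 had the largest light fall of the family (-2.08) against a BL rise of 1.40, and the combined change of -0.68 (95% interval -1.57 to 0.22) did not pass, though in wild-type arrays alone with the replicate block it did (adjusted p = 0.0498). XTH18 had -0.54 and 0.99, and its light effect did not pass without replicate 2 of Col, of Col_BL or of Col_BR_DL.

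Not all members of the family behaved in this way. XTH32 added up, with 2880.0 and 4733 in BL plus light, 1918 and 2778 in light alone, 1333 and 1656 in BL alone and 777 and 1462 in darkness, a combined rise of 3.43-fold, and without the replicate block its BL effect of 0.57 did not pass (adjusted p = 0.107). XTH16 rose 1.63-fold (adjusted p = 0.0283), a call that ended when any 1 of the Col or Col_BR_DL arrays was left out (log2 changes 0.57 to 0.83) and without the replicate block (adjusted p = 0.167). XTH26 was near the bottom of the signal range in every group and did not pass.

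Expansins, which loosen walls without cutting them, did not share 1 pattern. Of 8 tested alpha expansins BL raised 4 and lowered 2, beside 8.32% and 8.11% of all probe sets. Light raised 1 and lowered 3, beside 16.4% and 24.5%, and in the combined comparison 1 rose and 3 fell, beside 15.0% and 16.1%. Among these 8 genes 3 cancelled, EXPA8, EXPA9 and EXPA20, each lowered by light and raised by BL, as were 3.38% of all probe sets. EXPA8, a well-known brassinosteroid-induced expansin, had 1777 and 3415 in BL plus light, 1276 and 1124 in light alone, 2393 and 3150.2 in BL alone and 2507 and 2656 in darkness. The arrays with both treatments spanned those of darkness, and the combined change was -0.07 (95% interval -0.49 to 0.36). The BL alone arrays spanned those of darkness too, while both BL plus light arrays lay above light alone. The average rise with BL was thus seen between the lit groups and not between the dark ones, though the interaction did not pass. The BL effect of EXPA8, 0.56, had an adjusted p of 0.014 and one of 0.0569 without the replicate block. It did not pass either without replicate 2 of Col, of Col_BR_DL or of Col_DL. EXPA9 fell 1.73-fold in the combined comparison, with -1.34 from light and 0.55 from BL, and that fall did not pass without replicate 1 of Col (-0.60) or of Col_BR_DL (-0.41) or without the block (adjusted p = 0.0546). Its BL effect did not pass without the block (adjusted p = 0.0964), without replicate 2 of Col or without replicate 1 of Col_BL.

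EXPA7 and EXPA18, the expansins of root hair cells, followed BL instead. EXPA18 had 79.7 and 137 in BL plus light, 207 and 289 in light alone, 68.0 and 217 in BL alone and 238 and 561 in darkness. Its average BL effect was -1.28 (adjusted p = 0.00245) and its average light effect -0.38 (adjusted p = 0.238), and the combined fall was 3.16-fold. EXPA7 had 12.6 and 91.8 in BL plus light and 140.3 and 234 in darkness, a fall of 3.56-fold that did not pass without replicate 1 of Col (-1.46), without replicate 1 of Col_BR_DL (-1.38) or without the replicate block (adjusted p = 0.0673), and that was -1.17 with a constant of 64. These were the 2 genes with a tested probe set among 12 root and root hair markers, and no seed or flower marker had one. Of 7 trichome and guard cell markers 2 had a tested probe set and are not described here. In whole seedlings fewer root hair cells and less RNA per cell cannot be told apart.

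Among 8 expansin-like and beta expansin genes, EXLA2 and EXLB1 were lowered by light and raised by BL (3.38% of all probe sets), and EXPB1 the other way (1.85%). EXLA2 had 506 and 633 in BL plus light, 143 and 338 in light alone, 830.4 and 1097 in BL alone and 787 and 711 in darkness, with -1.21 from light and 0.82 from BL. Its BL effect did not pass without the replicate block, and neither did that of EXPB1. The BL effect of EXLA2 also ended without replicate 2 of Col or replicate 1 of Col_BL, Col_BR_DL or Col_DL, and the light effect of EXLB1 without replicate 2 of Col or of Col_DL. EXLA1 rose 1.42-fold in the combined comparison (adjusted p = 0.0111), and in wild-type arrays alone with the block the adjusted p was 0.0536. Its call also ended without replicate 2 of Col (0.35) or replicate 1 of Col_BR_DL (0.48).

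Tubulins, the subunits of microtubules, changed little in the combined comparison. Of 7 tested members 3 fell, TUB5, TUB6 and TUB9, by 1.34-fold to 1.41-fold and with adjusted p-values of 0.00384 to 0.0102. Falls made up 16.1% of all probe sets. TUB1, a beta tubulin, had 2283 and 3322 in BL plus light, 1208 and 1749 in light alone, 3892 and 4042 in BL alone and 2886 and 2613 in darkness. Light gave -0.72 and BL 0.72, with a combined change of 0.00 (95% interval -0.33 to 0.34). TUB5 had a light effect of -1.07 and a BL effect of 0.57, and its combined fall did not pass without the replicate block (adjusted p = 0.0769), without replicate 1 of Col (-0.39) or without replicate 1 of Col_BR_DL (-0.26). The fall of TUB6 did not pass without those same arrays (-0.31 and -0.32), and in wild-type arrays alone with the block the adjusted p-values of TUB5 and TUB6 were 0.0513 and 0.0611.

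By the size of the smaller of the 2 averages, WAG2, XTH33, GH9B13, AT4G30650 and XTH20 were the 5 named genes most strongly lowered by light and raised by BL. WAG2, a protein kinase that acts on polar auxin transport, had 1103 and 2419 in BL plus light, 219 and 627 in light alone, 2993 and 3963 in BL alone and 1712 and 1255 in darkness. Light gave -1.50 and BL 1.65 (adjusted p = 0.000108 and 0.000174), and the combined change was 0.16 (95% interval -0.52 to 0.83). Without replicate 1 of Col that change was 0.87 and passed (adjusted p = 0.0339). GH9B13, of the glycosyl hydrolase family 9, to which the plant endoglucanases belong, was back at the dark level with both treatments. It had 2699 and 2764 in BL plus light, 909.6 and 839 in light alone, 5606 and 5396 in BL alone and 3013 and 2499.6 in darkness, with -1.32 from light, 1.31 from BL and a combined change of -0.01 (95% interval -0.41 to 0.40). AT4G30650 gave -1.42 and 1.31, with a combined change of -0.11.

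In the other direction, AT1G79520 had 295 and 254 in BL plus light, 613 and 649.8 in light alone, 48.9 and 72.8 in BL alone and 211 and 235 in darkness. Light alone was highest and BL alone lowest, and the arrays with both treatments lay slightly above darkness, a combined change of 0.28 that did not pass (adjusted p = 0.455). AT1G62510 returned to 1559 and 1192 in BL plus light, against 1424 and 1239 in darkness, with 3115 and 2106 in light alone and 431 and 357 in BL alone. AT3G57010 had 1.78 from light and -1.32 from BL. AT1G05340 had 2.48 and -1.89, with a combined change of 0.59 that did not pass, though without replicate 2 of Col_BR_DL or of Col it was 1.14 or 0.92 and passed. AT5G57785 did not cancel out: BL lowered it 11.9-fold and light raised it 3.34-fold, and with both it had 559 and 272, against 853 and 2409 in darkness, a fall of 3.57-fold (adjusted p = 0.00138). Leaving out 1 Col or Col_BR_DL array gave log2 changes between -2.71 (without replicate 1 of Col_BR_DL) and -0.96 (without replicate 2 of it), with -2.62 and -1.06 without replicates 1 and 2 of Col, and each of these passed.

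SWEET2, a vacuolar sugar transporter, was raised more by light than it was lowered by BL. It had 1480.3 and 1457 in BL plus light, 3313 and 2382 in light alone, 164 and 118 in BL alone and 467 and 403 in darkness. None of the 4 groups overlapped, and with 2.95 from light and -1.23 from BL the combined rise was 3.30-fold (adjusted p = 1.59e-06). SWEET11, a sucrose exporter of the plasma membrane, had no such light response. It had 4134 and 2428 in BL plus light, 11771 and 6500.4 in light alone, 2831 and 2417 in BL alone and 9753 and 8432 in darkness, a combined fall of 2.85-fold with a BL effect of -1.62 and a light effect of 0.11 (95% interval -0.12 to 0.35). SWEET3 fell 5.10-fold in the same way, and leaving out 1 array gave 3.67-fold to 7.08-fold. Of 15 tested sugar transporters 4 rose and 3 fell in the combined comparison, against 15.0% and 16.1% of all probe sets.

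**Figure D3:**
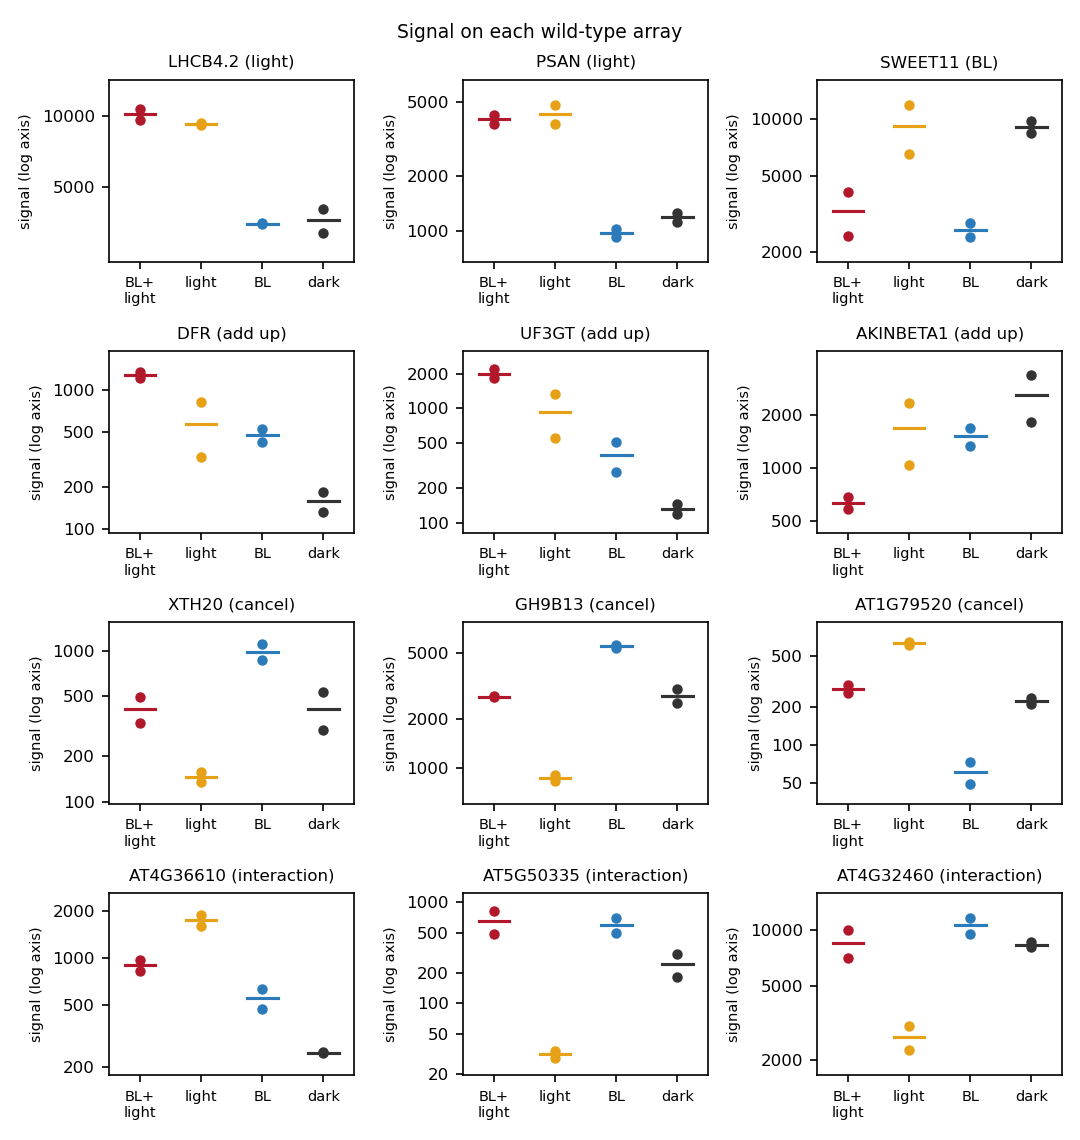
Signal (log axis) of 12 genes in the 4 wild-type groups, with 1 point per array and a bar at the mean of both arrays. LHCB4.2 and PSAN follow light, SWEET11 follows BL, DFR, UF3GT and AKINBETA1 take both changes in 1 direction, XTH20, GH9B13 and AT1G79520 return to near the dark level with both treatments, and the bottom row shows the 3 named genes whose interaction passed.

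Among the hormone pathways, 11 tested genes of auxin response and conjugation gave 2 rises and 5 falls in the combined comparison, beside 15.0% and 16.1% of all probe sets, so the rises are near that share. IAA29, an auxin-induced repressor of the Aux/IAA family, fell with light and had 72.0 and 126 in BL plus light, 65.2 and 98.0 in light alone, 275 and 255 in BL alone and 382 and 304 in darkness. Its combined fall was 3.19-fold (adjusted p = 6.65e-05) and its BL effect -0.06 (95% interval -0.41 to 0.28). GH3.3 and GH3.17 encode enzymes that join auxin to amino acids. GH3.3 had 154 and 189.7 in BL plus light, 69.8 and 96.1 in light alone, 518 and 469 in BL alone and 393 and 313 in darkness, with -1.67 from light and 0.70 from BL. GH3.17 fell with both, by 2.86-fold together. IAA34 rose 2.46-fold, led by BL (1.57), but its combined call (adjusted p = 0.0356) did not pass without the replicate block (adjusted p = 0.0566) or when any 1 of the Col or Col_BR_DL arrays was left out. YUC6, an auxin synthesis enzyme, fell 2.95-fold and was the 1 call among 4 genes of auxin transport and synthesis, beside 31.1% of all probe sets. That call ended without replicate 1 of Col (-1.21) or of Col_BR_DL (-0.82), while without replicate 2 of Col_BR_DL the change was -2.30.

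Of 5 gibberellin genes GID1B, a receptor, rose 1.53-fold and SPY, a repressor of gibberellin responses, fell 1.37-fold, beside 15.0% and 16.1% of all probe sets. Neither passed without the replicate block (adjusted p = 0.076 and 0.141). GID1B did not pass without replicate 1 of Col (0.50) or replicate 2 of Col_BR_DL (0.40), and SPY did not without either Col array (-0.47 and -0.44) or replicate 1 of Col_BR_DL (-0.35). BIM1, a partner of the brassinosteroid transcription factors, rose 1.57-fold among 3 tested genes of brassinosteroid signalling, beside rises in 15.0% of all probe sets. Its adjusted p was 0.176 without the block, and its log2 changes of 0.34, 0.68 and 0.63 did not pass without replicate 1 of Col_BR_DL or either Col array. No gene of brassinosteroid synthesis had a tested probe set that was named. EXO, a brassinosteroid-induced gene of cell expansion, had 3926 and 3909 in BL plus light, 1866 and 5759.6 in light alone, 7319 and 7899.9 in BL alone and 5637 and 5404 in darkness. Its combined change of -0.49 did not pass (adjusted p = 0.225), and the 2 light alone arrays differed by more than any other pair. Without either of them the same change passed (adjusted p = 0.00129 and 0.00135).

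The 3 tested cold-regulated genes rose, beside 15.0% of all probe sets. COR15A, which encodes a chloroplast protein that protects membranes during freezing, had 401 and 217 in BL plus light, 46.8 and 130.4 in light alone, 66.8 and 56.0 in BL alone and 23.5 and 34.2 in darkness. The rise was 7.01-fold (adjusted p = 0.00427), and it did not pass without replicate 1 of Col_BR_DL (log2 change 2.16) and was 3.46 without replicate 2 and 1.96 with a constant of 64. COR15B rose 2.33-fold, a call that ended without either Col array (1.23 and 1.21) or without replicate 1 of Col_BR_DL (1.07), and the dehydrin COR47 rose 1.72-fold. Of 7 tested genes of jasmonate and defence 2 rose and 2 fell, beside 15.0% and 16.1% of all probe sets, too few genes to tell from those shares. ECS1 rose 3.41-fold, and the plant defensin gene PDF2.1 fell 2.76-fold with replicate 2 above replicate 1 in each group, at 172 and 523 in BL plus light, 318 and 836 in light alone, 108 and 471 in BL alone and 453 and 1633 in darkness. That fall passed within replicate numbers and not without the block (adjusted p = 0.158), as did the fall of 1.74-fold in PDF2.5 (adjusted p = 0.0773 without the block), which also did not pass without replicate 1 of Col (-0.63) or of Col_BR_DL (-0.67).

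**Figure D4:**
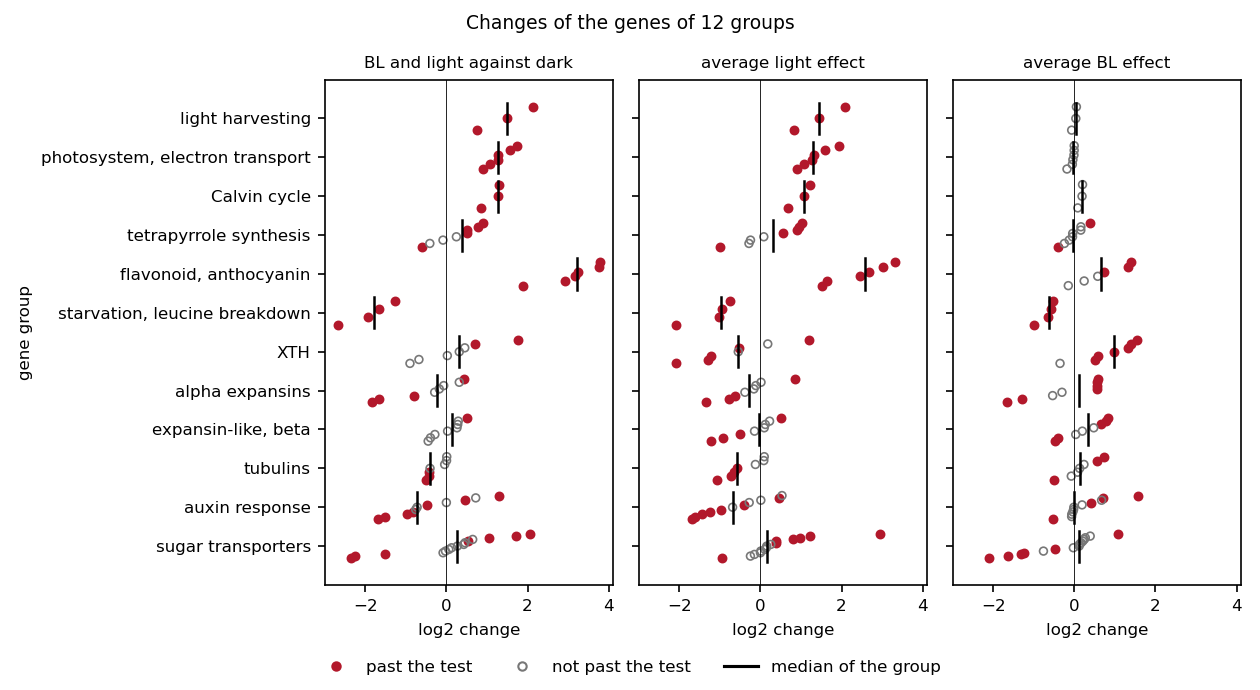
Log2 change of each tested member of 12 gene groups, with filled points for changes that passed the test, open points for others and a bar at the group's median. The panels show BL plus light against darkness, the average effect of light and the average effect of BL, and the flavonoid group has combined, light and BL medians of 3.21, 2.57 and 0.65.

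A departure from the sum of both effects was rarely detectable. The interaction passed in 5 probe sets (0.0281%), and at an unadjusted p under 0.05 in 1288 (7.24%). It passed in 0 without the replicate block, in 2 in wild-type arrays alone with the block, and in 0 to 42 when 1 array was left out. The 95% interval of the interaction reached a median of 0.60 log2 units to either side. That interval is not adjusted for the 17787 tests, and the smallest interaction that passed was 1.33, in AT4G32460. Departures well above 0.60 can therefore also have gone undetected with 2 arrays per group.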

How the data were processed

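Total RNA of Arabidopsis thaliana seedlings was measured on 14 expression arrays with 22810 probe sets, in 7 groups of 2 arrays. The authors deposited 1 table of signal intensity on a linear scale. Per the submitters' processing notes the tools were MAS5 and limma, without a version or a role for either. Each deposited array had a mean intensity of 500 once the top and bottom 2% of values were dropped, and setting it to exactly 500 moved no value by a share above 8.82e-05. Detection calls were not used here, nor were values of single probes. Precision is limited by having 2 arrays per group.

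After removal of 64 controls, a minimum mean signal of 50 over all arrays left 17787 probe sets and took out 4959. Log2(signal + 16) was fitted in limma 3.58.1 (R 4.3.3) on the 14 arrays together, using group means, a block for the wild-type replicate number and eBayes with a trend. Folds are on that scale and understate changes of low genes. The block was used because the comparison is defined by replicate number. Deviations from the group mean correlated at 0.23 to 0.43 between same-numbered arrays in all 6 pairs of wild-type groups, -0.03 to 0.02 in the 3 pairs of det2 groups and -0.05 to 0.04 in the 12 pairs across genotypes, with only 2 numbers per group. Comparisons of wild-type groups share arrays, and the average effects and the combined change are not independent of each other. The fit was tested on simulated data before use.

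Gene names came from GEO's platform annotation, with 13513 of 1 gene, 503 of several genes (not named) and 8794 unnamed here, and 13436 matched the reference gene table (TAIR10.1). The 38 gene lists held 1140 genes, of which 222 had a named probe set and 195 a tested one, and 21 lists had the minimum of 3. CHI, PDF1A, PDF1B and THO1 were then removed because the reference table gives those loci other identities. For a gene with several probe sets the one with the highest mean was used. The genes and lists were chosen with earlier results of these data known. Named genes are the 8 largest rises and 8 largest falls without overlap between groups, the 5 strongest of each direction that add up or cancel (by the smaller average effect), the 4 and 4 that hold at 4-fold or more with the narrowest interaction interval, up to 4 and 4 with an interaction, up to 4 called members of each list, and HYH, FHL, GI, EXO, EXPA8, LHCB4.2 and DFR. Further list members, among them SWEET11, TUB1, XTH18, XTH19, XTH26, UGT78D1, EXPA20, EXLA2, EXLB1, EXPB1, UGT72E1 and UGT85A2, were named after their values were seen. Alternatives tried were no replicate block, wild-type arrays alone, constants of 1 and 64, no filter and a minimum mean of 100, quantile normalization, no variance trend and leaving out each of 8 wild-type arrays. Figures were drawn with matplotlib 3.10.9.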

Additional observations from a re-analysis of the deposited data

Results flagged for a closer look

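Among 17787 probe sets, 5 had a light change that differed between seedlings with and without BL by a test of the difference itself, the interaction in limma, and 3 of these belong to a named gene. AT4G36610 had 972 and 828 in BL plus light, 1610.3 and 1870.0 in light alone, 634 and 470.2 in BL alone and 245 and 249 in darkness. Each treatment raised it and both together gave less than light alone, a light change with BL minus that without BL of -2.04 ± 0.25 on the log2 scale (SE; adjusted p = 0.0138). AT5G50335 had 484 and 825 in BL plus light, 28.7 and 33.9 in light alone, 492 and 689 in BL alone and 182 and 307 in darkness. Light lowered it in seedlings without BL, and the signals with BL overlapped between light and dark, an interaction of 2.54 ± 0.36 (adjusted p = 0.0399), or 1.78 with a constant of 64. AT4G32460 had 7081 and 9908 in BL plus light, 2253 and 3059 in light alone, 9536 and 11542 in BL alone and 8079 and 8560.1 in darkness, so the light alone arrays lay far below the other 6, and its interaction was 1.33 ± 0.16 (adjusted p = 0.0138). The light alone arrays also had the lowest actin 3′ to 5′ ratios, 2.28 and 3.74, and the part of this ratio in the interaction was not tested.

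The 2 probe sets with no gene name here had interactions of -2.10 and -2.68 (adjusted p = 0.0448 for each). None of the 3 named genes passed without the replicate block (adjusted p = 0.074 for AT4G36610, 0.316 for AT5G50335 and 0.316 for AT4G32460). In wild-type arrays alone with the block AT5G50335 passed (adjusted p = 0.0458) and the others did not (0.112 for AT4G36610 and 0.221 for AT4G32460). Over the 8 fits that left out 1 wild-type array, the interaction was -2.25 to -1.82 for AT4G36610, 2.30 to 2.78 for AT5G50335 and 1.18 to 1.49 for AT4G32460. The calls ended without replicate 1 of Col or replicate 1 of Col_BL for all 3, and for AT4G36610 and AT5G50335 also without replicate 2 of Col or either Col_BR_DL array, and for AT5G50335 without replicate 2 of Col_DL. AT5G50335 also did not pass without the filter on low signal (adjusted p = 0.0875), and without the variance trend none of the 3 did (adjusted p = 0.0903 for AT4G36610 and 0.193 for the others).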

How the results depend on the processing

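Over 17 other settings the 166 named results gave 2818 values, and in 0 of them did a result that passed turn its direction. Of 149 that passed, 113 did so in each setting and 36 ended in at least 1, most often in wild-type arrays alone without the replicate block (29), without replicate 1 of Col_BR_DL (24) and without replicate 1 of Col (22). The wild-type arrays spread more than the det2 arrays, and wild-type arrays alone without the replicate block gave 2959 calls for the combined change, 4333 for light, 966 for BL, 0 for the interaction, 181 that add up, 269 that cancel and 2041 that hold. Without the replicate block, all 14 arrays gave 1790 calls for BL, 434 that add up, 517 that cancel and 0 for the interaction. With the replicate block and wild-type arrays alone, 620 cancelled and 2 interactions passed. The interaction passed in 3 and 11 with constants of 1 and 64, in 2 without the filter and in 1 without the variance trend. The cause of these moves was not tested, and the fits of wild-type arrays alone also had fewer arrays. Leaving out 1 wild-type array gave 3847 to 5828 combined calls, 2096 to 2376 of at least 2-fold, 6040 to 6670 for light, 1917 to 3124 for BL, 0 to 42 for the interaction, 532 to 749 that add up, 582 to 977 that cancel and 3867 to 4229 that hold. The BL count was lowest without replicate 1 of Col_BL (1917), and the interaction count was 42 without replicate 2 of Col_BL, 39 and 10 without replicates 1 and 2 of Col_DL, 2 without replicate 1 of Col_BR_DL, 0 and 1 without replicates 1 and 2 of Col and 0 without replicate 1 of Col_BL. Other settings left these counts within 1.5 times. With 2 arrays per group, a combined change under about 0.43 log2 units was within its own interval for a typical probe set.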

Other observations

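UDP-glycosyltransferases, which attach sugars to hormones and secondary metabolites, included 18 of 38 tested members that light raised on average and 8 that it lowered, and BL raised 3 and lowered 4. Among all probe sets light raised 16.4% and lowered 24.5%, and BL raised 8.32% and lowered 8.11%. The counts lowered by light and those changed by BL are near these shares. UGT78D1, UGT78D2 and UGT84A1 are also on the flavonoid list and UGT74B1 on the glucosinolate list, so they are counted in both places. Of the 38, 13 rose and 9 fell with BL plus light against darkness, beside 15.0% and 16.1% of all probe sets, with a median log2 change of 0.36. UGT76E11 had 398 and 561 in BL plus light, 298 and 767 in light alone, 76.2 and 67.1 in BL alone and 54.1 and 81.7 in darkness, a rise of 5.91-fold with a BL effect of 0.03 (95% interval -0.42 to 0.48). UGT71B1 rose 4.80-fold. UGT85A2 fell 3.17-fold, lowered by both treatments, and UGT72E1, a glucosyltransferase of monolignol aldehydes, had 809 and 932 in BL plus light, 412 and 434 in light alone, 3756 and 2767 in BL alone and 1511 and 1462 in darkness. Light lowered UGT72E1 (-1.82) and BL raised it (1.06), without overlap among the 4 groups.

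The 26 tested genes of cellulose synthesis and wall polymers gave 2 rises and 5 falls, beside 31.1% of all probe sets that passed. TBL34 and TBL35, of the family that acetylates wall polysaccharides, fell 2.36-fold and 1.63-fold, and neither passed without replicate 1 of Col_BR_DL (-0.97 and -0.58), nor TBL35 without replicate 1 of Col (-0.50). TBL41 and GAUT15 rose 1.81-fold and 1.60-fold, led by BL, and both calls ended when any 1 of the Col or Col_BR_DL arrays was left out, and that of TBL41 also without the replicate block. Of 3 tested glucosinolate genes BGLU28, a beta-glucosidase, had 1305 and 439.6 in BL plus light, 86.0 and 76.4 in light alone, 1124 and 434 in BL alone and 109 and 255 in darkness. It rose 4.21-fold with a BL effect of 2.48, and without replicate 1 of Col (log2 change 1.01) or of Col_BR_DL (1.37) the rise did not pass, while it was 3.14 without replicate 2 of Col and 2.78 without replicate 2 of Col_BR_DL. UGT74B1, which glucosylates the glucosinolate core, rose 2.24-fold, and rises made up 15.0% of all probe sets. Of 3 genes of seed oil use ICL, isocitrate lyase, fell 1.52-fold and SDP1, an oil body lipase, 1.58-fold, beside falls in 16.1% of all probe sets. ICL did not pass without the replicate block (adjusted p = 0.0576), and neither passed without replicate 1 of Col (-0.53 for ICL and -0.41 for SDP1) or of Col_BR_DL (-0.36 and -0.39), nor ICL without replicate 2 of Col (-0.67).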
